A study of Mus musculus with 5 samples.

Results

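The binding of NKX2-1 in mouse lung was compared between antibodies that gave a longer list of peaks, Abcam133638 and Millipore07-601, and antibodies that gave a shorter one, Abcam133737 and Abcam76013. The comparison covers 38538 regions of 68919 in all, found by merging every peak that overlapped another by at least 1 bp. They are 6783 regions with a peak in both longer-list libraries and in neither shorter-list library (longer-only regions), 149 with the reverse pattern (shorter-only regions) and 31606 with a peak in all 4 libraries (four-antibody regions). The sides were set by the length of the lists, so the excess of longer-only over shorter-only regions follows from that choice and is given as a description.

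All 4 libraries and their common input came from whole lungs of mice labelled wild type, at postnatal day 10, as 1 immunoprecipitation per antibody. The labels name each antibody by supplier, catalogue number and lot, and give no strain, sex or number of animals. Per the labels' protocol, fixed nuclei were sonicated and the chromatin was pooled, so the libraries may share 1 preparation, and all of them share 1 input. Antibodies are not replicates of a side and regions are not replicates of a library. No test between the sides is given: with 2 libraries on each side, an exact two-sided permutation test could not go below p = 0.333. Whole lung mixes cell types, so the cell in which a region was bound cannot be told from these data.

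NKX2-1 is a homeodomain transcription factor of lung epithelium, thyroid and ventral forebrain. In the lung it is present in alveolar type 1 (AT1) cells, the flat cells across which gas is exchanged, in alveolar type 2 (AT2) cells, which secrete surfactant, and in airway cells. In chromatin immunoprecipitation with sequencing, an antibody recovers DNA fragments that were crosslinked near its protein, and the stack of sequenced fragments at a place is called the pileup.

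The longer-list libraries were not sequenced more deeply. After duplicates had been removed, Abcam133638 held 44777214 tags and Millipore07-601 held 43031331, against 46547989 for Abcam133737 and 46472700 for Abcam76013. Peaks numbered 57891, 57763, 40877 and 41296 in the order Abcam133638, Millipore07-601, Abcam133737 and Abcam76013, which is the order of values used throughout. The lowest pileup called was 12 or 13 tags in every list, and 1 tag was worth 0.0215 to 0.0232 on the scale used below, where pileup is the tags at a peak's summit per 1000000 filtered tags of the library. Depth therefore sets a like lower limit on the 4 lists, and the counting intervals of ratios cover sampling of tags only.

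6 promoters show what the classes look like in sequence. They were chosen for having a summit within 250 bases before a gene's start: Cxcl15, whose promoter region had the highest pileup, Hdgf and Crb3 with the highest and lowest ratio between the sides among strong promoter regions, Snx18 and Vta1 with the strongest longer-only regions, and Cldn18 as the strongest of an AT1 gene. The sequences are from RefSeq (GRCm38.p6, the same coordinates as mm10), 250 bases up to the start of the gene, on the strand of the gene. Capitals mark the GC box GGGCGG, or its reverse complement, and the letters CACTTGA, also with CAA or TAA in place of the ending TGA, forms of the site that NKX2-1 is known to prefer, on either strand.
Cxcl15: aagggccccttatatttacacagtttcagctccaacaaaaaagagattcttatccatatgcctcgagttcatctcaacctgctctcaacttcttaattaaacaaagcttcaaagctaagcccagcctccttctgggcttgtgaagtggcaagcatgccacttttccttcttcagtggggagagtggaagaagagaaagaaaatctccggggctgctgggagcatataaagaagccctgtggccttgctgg
Hdgf: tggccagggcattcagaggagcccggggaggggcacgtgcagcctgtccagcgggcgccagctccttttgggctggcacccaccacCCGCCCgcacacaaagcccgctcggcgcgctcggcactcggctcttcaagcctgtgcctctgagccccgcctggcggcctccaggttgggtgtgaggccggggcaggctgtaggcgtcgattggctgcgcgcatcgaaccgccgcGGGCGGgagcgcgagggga
Crb3: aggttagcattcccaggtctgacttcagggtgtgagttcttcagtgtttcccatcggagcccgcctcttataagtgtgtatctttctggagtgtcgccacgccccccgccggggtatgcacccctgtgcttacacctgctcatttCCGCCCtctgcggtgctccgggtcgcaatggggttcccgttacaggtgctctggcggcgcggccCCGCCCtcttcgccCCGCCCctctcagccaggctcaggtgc
Snx18: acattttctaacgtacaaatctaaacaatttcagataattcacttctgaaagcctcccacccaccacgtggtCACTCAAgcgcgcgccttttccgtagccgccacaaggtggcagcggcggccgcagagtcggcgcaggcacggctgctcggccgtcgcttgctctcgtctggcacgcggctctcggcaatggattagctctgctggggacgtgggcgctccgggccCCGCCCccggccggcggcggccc
Vta1: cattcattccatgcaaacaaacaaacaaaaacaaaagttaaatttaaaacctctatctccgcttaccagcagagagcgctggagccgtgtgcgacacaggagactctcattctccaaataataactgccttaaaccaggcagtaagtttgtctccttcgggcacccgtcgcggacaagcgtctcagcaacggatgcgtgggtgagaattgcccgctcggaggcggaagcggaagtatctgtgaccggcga
Cldn18: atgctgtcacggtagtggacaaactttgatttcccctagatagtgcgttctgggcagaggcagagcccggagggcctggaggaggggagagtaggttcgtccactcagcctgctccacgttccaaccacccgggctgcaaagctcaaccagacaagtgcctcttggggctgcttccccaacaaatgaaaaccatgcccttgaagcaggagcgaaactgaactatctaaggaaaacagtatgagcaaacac
Cxcl15 (chr5:90794284-90794533, plus strand) encodes a chemokine of lung epithelium, and its promoter held neither motif. Hdgf (chr3:87906071-87906320, plus strand) held 2 GC boxes and Crb3 (chr17:57061951-57062200, plus strand), a gene of epithelial polarity, held 3. Snx18 (chr13:113618565-113618814, minus strand) was the one of the 6 with an NKX2-1 site in these letters, and it also held 1 GC box. Vta1 (chr10:14705490-14705739, minus strand) and the tight junction gene Cldn18 (chr9:99710064-99710313, minus strand) held neither. GC content was 46.4% at Cxcl15, 72.8% at Hdgf, 63.2% at Crb3, 64.4% at Snx18, 50.4% at Vta1 and 54% at Cldn18.

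The values at these promoters run from a like excess of the longer side to a single deviating library. At Cxcl15 the pileup was 4.60, 5.23, 3.57 and 4.05, a ratio of the side means of 1.29. At Cldn18 it was 2.48, 2.42, 1.55 and 1.74, a ratio of 1.49. At both, each longer-list library was above each shorter-list library. At Hdgf the pileup was 2.93, 0.930, 0.644 and 0.624, so that the ratio of 3.04 came mainly from Abcam133638. At Crb3 it was 1.16, 1.23, 1.14 and 1.33, the sides overlapped and the ratio was 0.968. At Snx18 the longer-list libraries had 1.23 and 0.790 and at Vta1 1.00 and 0.999, with no peak in the shorter lists. Their local background, which the caller takes from the input unless that is below a floor, was 18.6 and 8.24 tags. It was 3.79 tags at Cxcl15, Crb3 and Cldn18. That value was both the lowest and the median over four-antibody regions, so it is the floor and not a reading of the input there.

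The main pattern was a like excess of the longer side at nearly every place that all antibodies marked. The sides were chosen by list length, and at like depth a higher pileup yields more peaks. The direction of this excess is therefore not independent of that choice and is given as a description. Over the 31606 four-antibody regions the ratio of the longer-list mean to the shorter-list mean had a median of 1.41, with quartiles of 1.28 and 1.55, and 90% of regions lay between 1.08 and 1.78. Both longer-list libraries were above both shorter-list libraries in 25651 regions (81.2%), the reverse held in 110 (0.348%), and the libraries of the sides overlapped in 5845 (18.5%). The ratio was at least 1.5 in 10296 regions (32.6%) and below 1 in 637 (2.02%). On the log2 scale the ratios had a median of 0.50 and an SD of 0.217 over regions, and the sampling of tags alone gives a median SD of 0.244. Regions with a low pileup in the shorter lists are missing here because they were not called. In the highest of 10 equal groups by mean pileup (3161 regions) the SD was 0.133, and the sampling of tags alone gives a median SD of 0.146. The part of the missing regions in the spread was not tested.

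**Figure D1:**
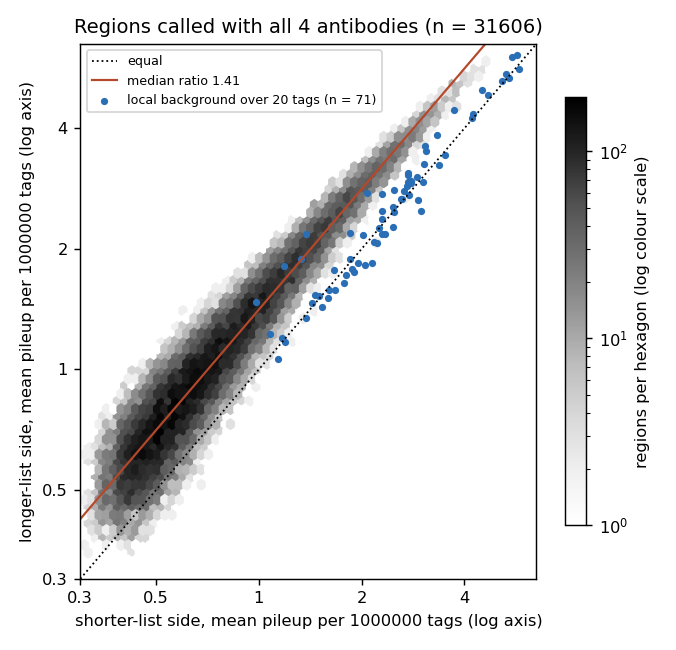
Mean pileup per 1000000 tags of the longer-list libraries (vertical, log axis) against that of the shorter-list libraries (horizontal, log axis) at the 31606 four-antibody regions, shaded by the number of regions per hexagon. The cloud follows the line of the median ratio of 1.41, while most of the 71 regions with a local background over 20 tags (blue) lie near the dotted line of equality.

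Each library was also centred on its own median over these regions, which sets the level of the libraries equal by construction. Both longer-list libraries then lay above in 14.1% and both shorter-list libraries in 17.6%. These shares describe what is left once the level is taken out and are no test of it. What set the level of a library was not tested.

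The step between sides was wider than the step within a side, which the choice of the sides by list length favours. Single libraries differed across sides by median ratios of 1.35 (Abcam133638 over Abcam133737), 1.32 (Abcam133638 over Abcam76013), 1.49 (Millipore07-601 over Abcam133737) and 1.47 (Millipore07-601 over Abcam76013). Within the longer side Abcam133638 over Millipore07-601 had a median of 0.904, and within the shorter side Abcam133737 over Abcam76013 had 0.988. The longer-list libraries therefore differed from each other by more than the shorter-list libraries did. In the 25% of regions with the highest pileup (7902 regions, a mean of at least 1.17) the step within the longer side was wider, at 0.854, and the steps across sides were 1.34, 1.31, 1.58 and 1.53.

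**Figure D2:**
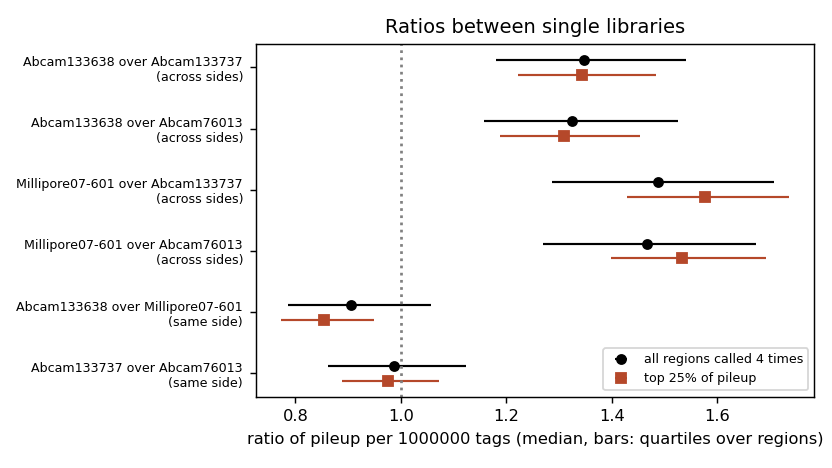
Median ratio of pileup per 1000000 tags for each pair of libraries, with bars from the lower to the upper quartile over regions, for all 31606 four-antibody regions (black circles) and the top 25% of pileup (red squares). The 4 pairs across sides lie at medians of 1.31 to 1.58, and the pairs within a side at 0.854 to 0.988.

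Beyond the common level, the deviations of regions were compared between pairs of libraries with none in common. The log2 ratio of Abcam133638 over Abcam133737 had a Pearson correlation across the 31606 regions of -0.0015 with that of Millipore07-601 over Abcam76013. The other pairing without a shared library, Abcam133638 over Abcam76013 and Millipore07-601 over Abcam133737, gave -0.038. In the top 25%, where counting error is smaller, the values were -0.018 and -0.068, and -0.067 and -0.115 without the regions whose background was over 12 tags (7739 regions left). These are descriptions across regions, whose values share the input and the cutoffs of the caller.

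The ratio varied little with size, position or chromosome. By width of the region its median was 1.37 in the narrowest 25% and 1.42, 1.42 and 1.43 in the others. It was 1.413 within 1 kb of a gene end, 1.409 further inside genes, 1.410 outside genes up to 50 kb away and 1.414 beyond 50 kb. Over chromosomes 1 to 19 and X the medians ran from 1.396 on chromosome 14 to 1.443 on chromosome X, which carries 374 of these regions. The quartiles of all of these groups overlap widely.

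Pileup itself moved with the ratio at both ends of its range. In the lowest of 10 equal groups by mean pileup the median ratio was 1.24, in the next 1.34, and from the fourth to the highest group it stayed between 1.40 and 1.46. Both longer-list libraries were above in 56.1% of the lowest group and 96.2% of the highest. A weak region counts here only where the shorter-list libraries passed the cutoff too, which by construction leaves out weak regions of high ratio. With 1 tag kept per position and strand, a pileup cannot exceed 2 times the fragment length of 152 to 162 bp. At 20% to 40% of that ceiling the median ratio was 1.45 (4681 regions), at 40% to 60% it was 1.38 (603 regions) and above 60% it was 1.29 (72 regions). The highest pileup in each list was 86.1% to 88.5% of its ceiling.

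A small set of places with high input did not follow the common ratio. In 71 four-antibody regions the local background was over 20 tags, and their median ratio was 1.02, with quartiles of 0.961 and 1.08. In the 29417 regions with a background of at most 6 tags it was 1.41. Of the 7902 regions with the highest pileup, 10 had both shorter-list libraries above both longer-list libraries, and 9 of these had a background over 12 tags. 5 of the 10 had Sfi1 as nearest gene end. Most reversals were weak regions elsewhere: of all 110, 90 had a background of at most 6 tags and 8 one over 20, and their median pileup was 0.516. Along the Sfi1 locus, whose gene encodes a centrosome protein, 26 four-antibody regions lay between 3123773 and 3196805 of chromosome 11. Their ratios ran from 0.857 to 1.19 with a median of 1.03, and their backgrounds from 25.0 to 91.7 tags.

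Among regions of the top 25% whose sides did not overlap, those with the lowest ratio were of this kind, and those with the highest were not. In all, 37 regions of the top 25% had a ratio below 1, and those with overlapping sides are not described here. At Lars2, the gene of the mitochondrial leucyl-tRNA synthetase (chr9:123461780-123462179), the pileup was 2.61, 2.37, 2.86 and 3.12, the ratio was 0.834 (95% counting interval 0.696 to 1.00) and the background 48.9 tags. Near Sfi1 (chr11:3131296-3131552) it was 1.99, 1.70, 2.19 and 2.11, a ratio of 0.857 at 42.6 tags. In both the shorter-list libraries were above, without overlap. The 4 others were a pair of further regions at Sfi1 (0.907 and 0.931), one 373 kb from Csmd1 (0.887, background 26.6 tags) and one inside Arhgap21 (0.929, 13.8 tags). With the recovered background subtracted from each pileup, the median ratio of the 71 regions with a background over 20 tags was 1.07, with quartiles of 0.960 and 1.16, against 1.47 in the 29417 regions with at most 6 tags. The part of the input in these ratios was not tested.

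Highest after Hdgf were regions at genes of varied function, all with a background below 4 tags. Inside Fut8, a fucosyltransferase gene (chr12:77237856-77239259), the pileup was 1.63, 1.74, 0.838 and 0.603, a ratio of 2.34 (interval 1.74 to 3.17). At the end of Atr, the gene of a DNA damage kinase (chr9:95857460-95857830), it was 1.67, 1.74, 0.644 and 0.904, a ratio of 2.21. Regions inside Tusc3, Eml4 and Ppfibp2 (39.6 kb from the nearest gene end, that of Cyb5r2) had ratios of 2.16, 2.14 and 2.07. In these the longer-list libraries were both high, unlike at Hdgf. They were picked as extremes of 7902 regions.

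Longer-only regions made up 9.84% of all merged regions and shorter-only regions 0.216%. Longer-only regions were weak and narrow. Their median pileup in the longer-list libraries was 0.490, against 0.945 in the same libraries at four-antibody regions, or 21 tags in each against 41 and 42. Their median width was 245 bp, against 409 bp. Shorter-only regions had a median pileup of 0.387 in their own libraries, or 18 tags, and a width of 228 bp. The lowest pileups called were 12 or 13 tags, and the median over all peaks of a list was 27 to 29 tags. The medians of both classes thus lay between these values, in the lower part of the lists. The lists do not give the pileup where no peak was called, so a missing peak is not a measured low value.

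The count of longer-only regions was nearly kept by thresholds common to all lists, 7283 at a −log10 q of at least 5 and 6095 at a fold enrichment of at least 5, beside 6783. Those of shorter-only regions were 76 and 40, beside 149. Lists of equal length gave other counts. When the strongest 40877 peaks of every list were kept, so that all were as long as the shortest, longer-only regions fell from 6783 to 1623 and shorter-only regions rose from 149 to 1142. A four-antibody call was then given to 28209 regions, at a median log2 ratio of 0.52. At equal length the classes were thus nearer in number, and the ratio was as large as before. Dropping either longer-list library gave 14636 or 14766 longer-only regions, and dropping either shorter-list library 10908 or 11136.

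How often a region of one side was found by the other moved with its strength. Among regions called in both longer-list libraries, both shorter-list libraries also had a peak in 10.0% at a longer-list pileup of 0.3 to 0.4, in 38.0% at 0.5 to 0.6, in 78.4% at 0.7 to 0.8 and in 99.9% above 1.5. Neither had one in 60.3%, 25.4%, 5.78% and 0.030%. In the reverse direction the recovery was already 80.1% at a shorter-list pileup of 0.3 to 0.4 and 98.0% at 0.5 to 0.6. That recovery is higher in this direction follows from the choice of the sides by list length.

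**Figure D3:**
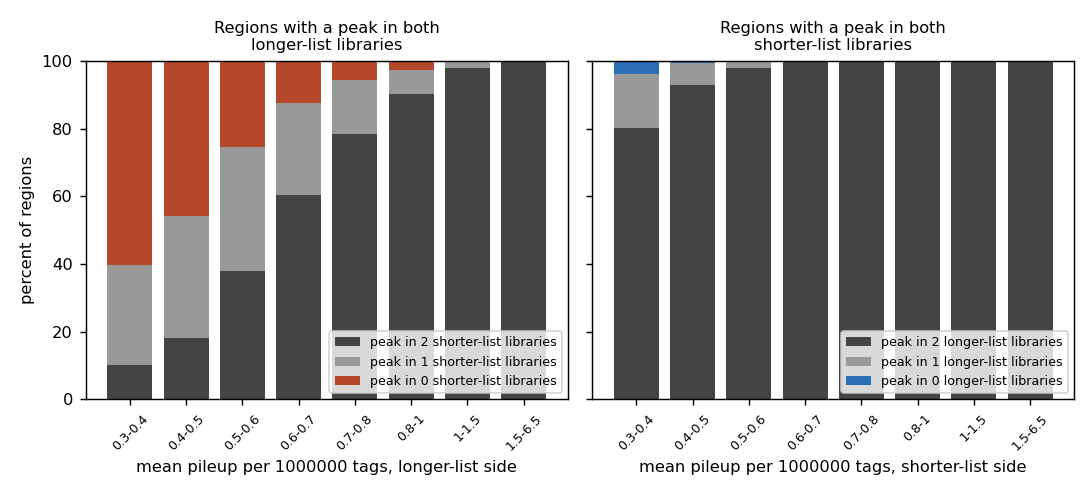
Percent of regions, in bins of mean pileup per 1000000 tags of one side, that had a peak in 2, 1 or 0 libraries of the other side, for regions with a peak in both longer-list libraries (left) and in both shorter-list libraries (right). In the lowest bin 60.3% of the longer-list regions had no shorter-list peak, and the dark bars reach 99.9% in the highest bin of both panels.

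The few longer-only regions of high pileup stood out by their background. Of the 211 with a longer-list pileup of at least 0.8, 151 (71.6%) had a local background over 6 tags, against 9.54% of four-antibody regions of that strength. The input held 10653749 filtered tags and was scaled up to each library, so 1 input tag counts as several tags of background. The median background of the 211 regions, 8.24 tags, thus rests on very few input tags. The strongest lay on chromosome 17 (chr17:39844895-39845118), 105 kb from the nearest protein-coding gene, Esp38, with 5.47 and 5.69 at a background of 187 tags. It ended 1.24 kb before Rn18s-rs5, a pseudogene related to 18S ribosomal RNA. The next lay 19.2 kb from Mid1 (chrX:170009836-170010141) with 2.37 and 2.21 at 36.9 tags. An exception was a region 15.1 kb from Kera, the gene of a corneal proteoglycan (chr10:97591792-97592022), which had 1.30 and 1.56 at 4.53 tags. The other 5 of the strongest 8 lay near Gm40363 and Tnfsf18 and inside Fsip1, Dock9 and Rab3il1, at backgrounds of 9.05 to 24.8 tags. A high background raises the pileup a peak needs, so the class rule itself favours such places among strong longer-only regions. Whether the background explains the absence of these regions from the shorter lists was not tested.

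Strong shorter-only regions also had a raised background. The strongest lay inside Sfi1 (chr11:3190232-3190522), with 2.60 in Abcam133737 and 2.47 in Abcam76013 at a background of 76.8 tags. Inside A530032D15Rik (chr1:85088241-85088489) the values were 1.29 and 1.70 at 24.8 tags, and inside Jarid2, the gene of a Polycomb cofactor (chr13:44869829-44870099), 1.35 and 1.44 at 30.6 tags. The other 5 of the strongest 8 had pileups of 0.644 to 0.795 and backgrounds of 8.73 to 13.1 tags. A background over 12 tags was found in 4.03% of shorter-only, 1.16% of longer-only and 0.725% of four-antibody regions.

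The location of the classes is given as shares of regions, which are not independent, so no interval is set beside them. Within 1 kb of a gene end were 18.1% of longer-only regions, against 22.5% of four-antibody and 16.8% of shorter-only regions. Further inside genes were 49.1%, 47.1% and 47.7% in the same order, outside genes up to 50 kb 22.4%, 20.5% and 23.5%, and beyond 50 kb 10.4%, 9.91% and 12.1%. With lists of equal length the share of longer-only regions at gene ends was 14.6%. The classes differ in pileup, and at matched longer-list pileup the gap at gene ends was mostly wider. Longer-only and four-antibody shares were 21.5% and 26.1% at 0.3 to 0.4, 16.6% and 24.4% at 0.5 to 0.6, and 13.8% and 27.1% at 0.7 to 0.8. From a longer-only region the nearest four-antibody region was a median of 8.53 kb away, against 7.72 kb from a four-antibody region to the next. Within 1 kb of a four-antibody region lay 12.0% of longer-only regions, against 10.7% of four-antibody regions with such a neighbour.

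Peaks in four-antibody regions were also wider in the longer lists. Their median width was 336 and 352 bp with the longer-list antibodies and 281 and 285 bp with the others. They covered 12.6 and 12.9 Mb, against 10.5 and 10.6 Mb. A peak's width counts the bases above the cutoff, so it moves with the pileup.

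Landmark genes of the lung carried the same excess. At Nkx2-1 itself, the gene of the factor (chr12:56534904-56535744), the strongest region had 2.77, 2.84, 2.17 and 2.11, a ratio of 1.31 (counting interval 1.08 to 1.59). Surfactant protein C is a defining product of AT2 cells, and the top region around its gene Sftpc was in the neighbour Lgi3, 6.01 kb off (chr14:70529684-70531106), with 3.86, 4.69, 2.79 and 3.31, a ratio of 1.40. Sftpb and Abca3, further genes of surfactant production, had ratios of 1.33 and 1.38. At all 4 genes the sides did not overlap. Scgb1a1, the secretoglobin gene of airway club cells (chr19:9081046-9081747), had 2.34, 2.44, 1.63 and 1.87, a ratio of 1.37.

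AT1 genes showed both ends of the range. At Aqp5, a water channel gene (chr15:99594795-99595666), the pileup was 2.93, 3.37, 1.85 and 2.00, a ratio of 1.64. At Hopx, a homeodomain protein gene (chr5:77097694-77098035), it was 0.782, 0.999, 0.408 and 0.646, a ratio of 1.69 with a counting interval of 1.16 to 2.46. At Cav1, the caveolin 1 gene (chr6:17306131-17306731), it was 1.72, 2.30, 1.74 and 1.68, so that Millipore07-601 alone stood above and the ratio was 1.18 (0.941 to 1.46). Ager had a ratio of 1.32 and the actin gene Actb one of 1.51. Counting intervals at single regions are as wide as these differences, and the Hopx, Ager and Cav1 intervals overlap.

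Longer-only regions also lay close to landmark genes that had a four-antibody region. Inside Sftpc (chr14:70520935-70521958) one had 0.380 and 0.790, in Abca3 (chr17:24352978-24353171) 0.447 and 0.418, and in Actb (chr5:142904810-142905091) 0.536 and 0.558. Others lay near Nkx2-1, Ager and Aqp5 at 0.357 to 0.491. All of these are weak beside the four-antibody regions of the same genes. Cdh5, the cadherin gene of endothelium, and Ptprc, the CD45 gene of immune cells, lacked peaks of all antibodies within 10 kb, and Pdgfra, a fibroblast receptor gene, had none of the classes compared here.

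**Figure D4:**
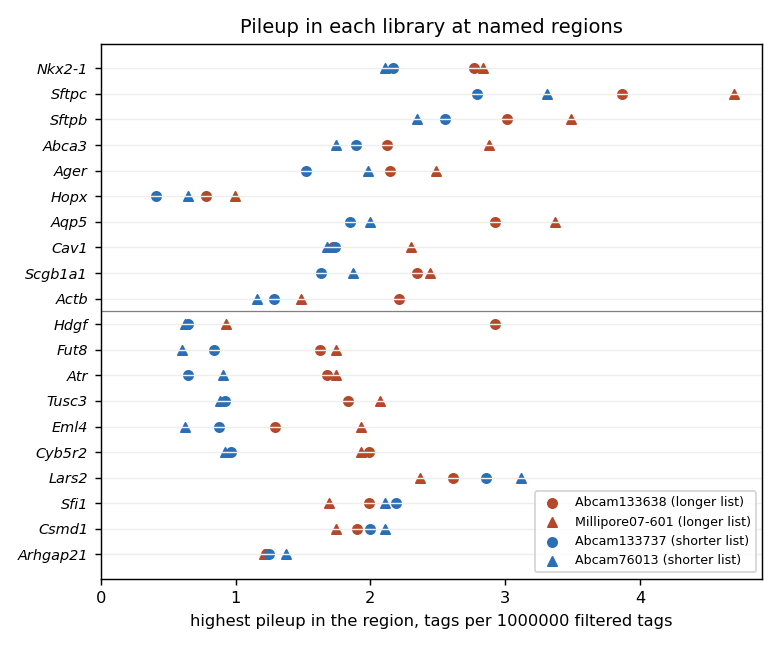
Pileup per 1000000 filtered tags in each of the 4 libraries (red for longer lists, blue for shorter lists). Above the grey line is the strongest four-antibody region of 10 landmark genes. Below it are the genes of the highest and lowest ratios of the top 25%, among regions whose sides did not overlap. The red symbols lie to the right of the blue ones at the landmark genes except Cav1, and to the left at Lars2 and Sfi1.

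Across genes the excess was again general. Of 21883 protein-coding genes, 12672 (57.9%) had a four-antibody region inside or within 10 kb, and at the strongest such region the median ratio was 1.43, with quartiles of 1.31 and 1.55. Both longer-list libraries were above in 86.5% and both shorter-list libraries in 0.174%. A longer-only region was within that distance of 5046 genes (23.1%), of 33% of the genes with a four-antibody region and of 9.37% of those without. It was the sole one of these for 863 genes (3.94%). Shorter-only regions were near 154 genes (0.704%).

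Lists of cell type genes had ratios close to that of all genes. Neighbouring genes of a list can share a strongest region, which then counts for each. Examples are Col4a3 and Col4a4, Sftpc and Lgi3, Mcidas and Ccno, and Gkn2 and Gkn3. The median was 1.42 over 27 AT1 genes with a four-antibody region, 1.41 over 28 AT2 genes, 1.46 over 28 genes of general epithelium, 1.44 over 9 airway secretory and 1.47 over 10 airway ciliated genes. It was 1.35 over 13 endothelial, 1.37 over 8 immune and 1.55 over 9 mesenchymal genes, and these lists are small. Ribosomal protein genes had 1.36 (23 genes), housekeeping genes 1.37 (22) and proliferation genes 1.35 (21). Genes of lung transcription factors had 1.44 (30), of the YAP and TEAD pathway 1.42 (22), of the gastrointestinal programme 1.52 (8) and of neural cells 1.44 (7). All of these medians lie within the quartiles of all genes. The highest, 1.70, belonged to the 3 thyroid genes with such a region: Tshr, the thyrotropin receptor gene, at 1.91, Slc5a5, the iodide transporter gene, at 1.70 and Tg, the thyroglobulin gene, at 1.66. The region counted for Slc5a5 lay at the end of its neighbour Ccdc124, 9.37 kb off. No gene of the 16 lists had both shorter-list libraries above at its strongest region, and both longer-list libraries were above in 23 of 27 AT1 and 26 of 28 AT2 genes, beside 86.5% of all genes. The lowest counts for their size were 8 of 13 endothelial and 15 of 21 proliferation genes. This share moves with pileup, for which the lists were not matched. Median pileup was 2.03 (AT1), 1.93 (AT2), 1.03 (endothelial) and 0.789 (proliferation), against 1.01 over all genes.

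**Figure D5:**
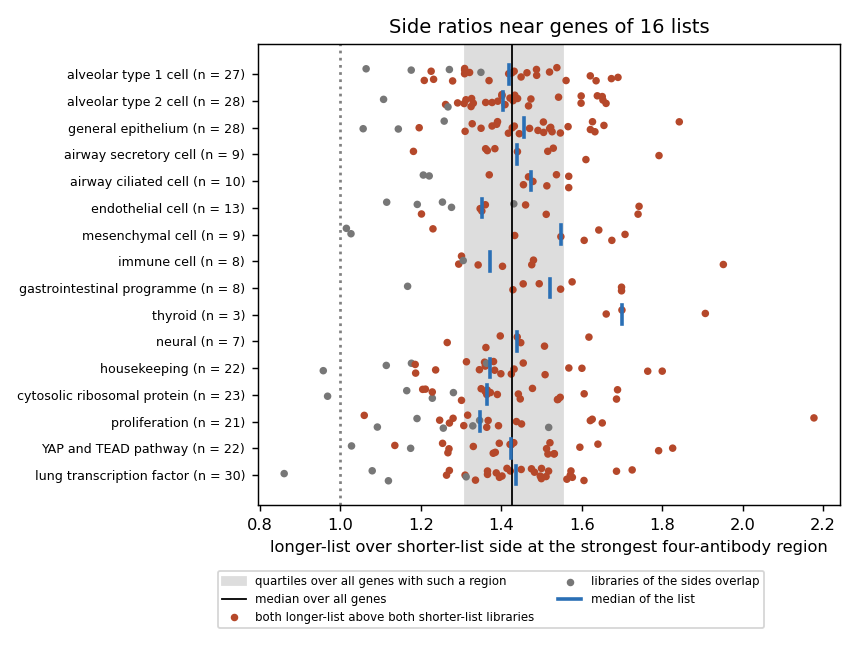
Ratio of the longer-list to the shorter-list side (horizontal) at the strongest four-antibody region of each gene of 16 lists, with list medians as blue bars; red points have both longer-list libraries above, grey points have overlapping sides. The grey band gives the quartiles over all genes, 1.31 to 1.55, and every list median except that of the 3 thyroid genes lies in it.

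Within lists, some of the extremes were weak regions with wide counting intervals. Sox9, a gene of the distal lung epithelium, had the lowest of all list genes at 0.860, from 0.447, 0.349, 0.430 and 0.495 (chr11:112780914-112781423), with a counting interval of 0.536 to 1.38. Pcna, the gene of the replication clamp, had the highest at 2.18, from 1.27, 1.25, 0.623 and 0.538 in its neighbour Cds2 (chr2:132262882-132263288), with an interval of 1.56 to 3.07. Cav2, which lies beside Cav1, had the lowest of the AT1 list at 1.06, from 1.81, 1.35, 1.33 and 1.64 (chr6:17280889-17281581), where the sides overlapped. Scd1, a desaturase gene of lipid synthesis, had the lowest of the AT2 list at 1.11, from 1.43, 2.00, 1.74 and 1.36 (chr19:44410261-44410763). Hc and Lyz1 had the highest of that list, at 1.66 and 1.65.

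The lists differed more in how many of their genes had a longer-only region nearby. These were 17 of 30 AT1 genes, 17 of 30 genes of lung transcription factors, 13 of 26 genes of the YAP and TEAD pathway and 12 of 30 AT2 genes, beside 23.1% of all genes and 33% of those with a four-antibody region. They were 3 of 25 ribosomal protein, 4 of 25 endothelial, 4 of 28 immune and 1 of 27 mesenchymal genes. Gene length differed between the lists, and its part in these counts was not tested. The median gene length was 66.1 kb in the YAP and TEAD list, 29.8 kb in the AT1 list, 12.2 kb in the transcription factor list and 3.35 kb in the ribosomal list, against 17.2 kb over all genes. It was 38.7 kb in the mesenchymal list. The order of the lists changed with the distance. Within 2 kb the counts were 12 AT1, 16 transcription factor, 12 YAP and TEAD, 9 AT2 and 1 ribosomal protein gene, beside 17.4% of all genes. Within 50 kb they were 22 AT1, 22 transcription factor, 15 YAP and TEAD and 19 AT2 genes, beside 41.8% of all genes. Ribosomal protein genes, with few longer-only regions at 10 kb, then numbered 13 of 25, and housekeeping genes, 9 of 25 at 10 kb, numbered 20 of 25.

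Of the 2 genes per list with the strongest longer-only regions, the highest pileup lay inside Nfib, the gene of a nuclear factor I protein needed for lung maturation (chr4:82471255-82471502), with a pileup of 1.07 and 0.860. The next lay inside Vgll4, a TEAD cofactor gene (chr6:114914418-114914619), with 0.960 and 0.906. The third was 3.05 kb from Bpifb1, an airway secretory gene, and inside Cdk5rap1 (chr2:154223260-154223464), with 0.849 and 0.930. It lay directly beside a stronger four-antibody region (chr2:154223517-154224022), with 1.72, 1.74, 1.01 and 1.14. Nfia, a relative of Nfib (chr4:98108606-98108932), followed with 0.715 and 0.999, then Rfx3, a ciliogenesis regulator (chr19:28011484-28012009), with 0.826 and 0.790, and Wwc2 (chr8:47941136-47941365) with 0.692 and 0.837. The local background was 12.4 tags near Bpifb1, 3.68 tags in Wwc2 and 8.24 tags in the 4 others. The values of 8.24 and 12.4 tags rest on very few input tags, and the part of the background in these regions was not tested. The strongest near an AT1 gene lay inside Krt7, a keratin gene (chr15:101424958-101425303), with 0.849 and 0.674 at a background of 12.4 tags. The next lay 7.84 kb from Cldn18 (chr9:99724923-99725253), with 0.625 and 0.837 at 4.59 tags.

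15 genes of the lists had a longer-only region and no four-antibody region within 10 kb. Foxj1, the regulator of motile cilia, had one inside the gene (chr11:116335259-116335597) at 0.536 and 0.511. Ccdc39, an axoneme gene, had one at its end (chr3:33844219-33844445) at 0.648 and 0.720. Myrf, a transcription factor gene of the AT1 list, had one 3.99 kb away (chr19:10204111-10204357) at 0.402 and 0.395, nearer to Fen1 and Tmem258. All 3 were below the median of 0.945 that four-antibody regions had in the longer-list libraries.

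The others span several tissues. In the thyroid list they included Dio1 and Hhex, with 0.558 and 0.418 inside Hhex, a homeobox gene (chr19:37435632-37435845). In the gastrointestinal list they were Cdx2, an intestinal homeobox gene, with 0.469 and 0.465 at 1.13 kb (chr5:147299654-147299914), and Cldn2. The endothelial genes were Pecam1, with 0.402 and 0.534 inside the gene (chr11:106659622-106659872), and Egfl7, whose region lies in Agpat2. Marveld2, Klrb1c, Snap25, B2m and Emc7 were also among them. Over all protein-coding genes the share with this pattern was 3.94%, and it was 15 of 390 listed genes.

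In promoters, the classes held some motif letters in different shares, and the ratio of the sides moved little with sequence. Of 21237 windows of 300 bases around gene starts (250 before and 50 after, RefSeq GRCm38.p6, chromosome 18 not included), 4491 held the summit of a four-antibody region and 539 that of a longer-only region. An NKX2-1 site in the letters given above, searched on both strands, was in 8.66% of the first and 4.82% of the second (26 windows). It was in 8.15% of all windows and 8.71% of the 13887 without a summit. Among the 750 windows whose four-antibody region was in the top 25% of pileup the share was 16.8%. The ratio of the sides at four-antibody promoters was 1.42 with such a site and 1.42 without. The GC box was in 69.5% and 66.6% against 46.2% of all windows, and the ratio was 1.43 with it and 1.39 without. From the lowest to the highest 25% of GC content, in 4 equal groups, the median ratio was 1.39, 1.41, 1.43 and 1.45, a trend smaller than the quartile range within any of these groups. The letters CCGGAA of ETS factors were in 36.7% of four-antibody and 30.1% of longer-only windows, against 18.7% of all, and those of the CCAAT box in 46.0% and 36.2%, against 38.2% of all. The windows also differed in composition. Median GC content was 61.3% in four-antibody and 61% in longer-only windows, against 56.3% over all windows. The median count of CG pairs was 22, 22 and 13 in the same order. The part of composition in the motif shares was not tested. A match is a description of the letters and not a measured site.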

How the data were processed

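The samples, from wild-type whole lung at postnatal day 10, were 4 NKX2-1 immunoprecipitation libraries (1 per antibody) and 1 input. Peak calling was done by the authors with MACS 2.1.2, per the file headers, for each antibody against the same input (21251744 tags, 50% of them redundant, 10653749 after filtering), at a q-value cutoff of 0.05 and 1 tag kept per position, with the smaller library scaled up, so that the pileup signal is in unscaled tags. The deposited tables give per peak the pileup signal at the summit, the ratio of pileup to local background (fold enrichment), and −log10 p and q-values. The submitters' processing notes name build mm10 and, beside MACS2, the tools Bowtie, SAMtools, deepTools, Trimmomatic and FastQC. Versions other than that of MACS are not given in the sources used here.

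Peaks of the 4 lists that shared at least 1 bp were merged. The highest pileup of each library in a region was divided by its filtered tags and multiplied by 1000000. Local background was recovered as (pileup + 1) / fold − 1. Its medians over the peaks of the 4 lists, 3.64, 3.73, 3.86 and 3.93 tags, are the floor of the caller in each library. Ratio intervals at single regions are exact binomial intervals on the summed tags, at 95%. Merging, classing and locating were tested on simulated peaks. Genes were 21883 protein-coding genes of RefSeq GRCm38.p6, which gives gene ends without strand or exons, so exons and introns were not told apart. Of 395 listed symbols 390 matched. Distances run from the summit. The members and the gene lists were chosen with earlier results of these data known. Named genes were the 14 landmark genes, the strongest 8 regions of each one-sided class, the 6 highest and 6 lowest ratios of the top 25% among regions whose sides did not overlap, and per list the extremes of the ratio and the strongest longer-only regions. The 15 list genes with a longer-only region alone, the Sfi1 stretch and the printed promoters were chosen with their values in view. 1 of these list genes is not reported here by name. As alternatives there were a −log10 q of 5 or more, fold enrichment of 5 or more, equally long lists, summit windows of 100 bp, other scalings of pileup and leaving out each library. Python 3.11.15, numpy 2.4.6, pandas 2.3.3 and scipy 1.17.1 were used.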

Additional observations from a re-analysis of the deposited data

How the results depend on the processing

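The median log2 ratio at four-antibody regions kept its direction under every setting run, from 0.41 with raw pileup to 0.56 with the background subtracted, and from 0.41 to 0.56 when each library was left out. It moved by less than the 0.145 that separates libraries of 1 side. The share of regions with both longer-list libraries above fell from 81.2% to 71.3% with raw pileup, 77.7% with fold enrichment and 14.1% with centred libraries, and that with both shorter-list libraries above rose from 0.348% to 0.595%, 0.649% and 17.6%. Centring removes the common factor by construction. Longer-only regions numbered 6783, 1623 with equally long lists and 10908 to 14766 when a library was left out. Shorter-only regions numbered 149, 76 at a −log10 q of at least 5, 40 at a fold of at least 5, 1142 with equally long lists, 401 with summit windows and 562 to 1245 when a library was left out, where fewer lists need to lack a peak. The share of longer-only regions at gene ends was 18.1%, 24.0% within 2 kb and 14.6% with equally long lists. Of 390 listed genes 120 had a longer-only region within 10 kb, 97 within 2 kb and 203 within 50 kb. Of 32 alternative counts for single lists 13 moved by over 1.5 times. Settings based on the recovered background were chosen after seeing the data, and none changed a direction. No paired analysis was possible because each antibody has 1 library. Depth limits weak regions: near 12 tags a peak missed in 1 list is not a measured absence.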
